A study of Mus musculus with 13 samples.

Results

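MHC and antigen presentation genes were followed through ECs (endothelial cells) of mouse tumors and of sprouting embryoid bodies (EBs). The members were all gene symbols that start with H2- (the mouse MHC, also called H-2) and 10 genes named singly, which were B2m, Tap1, Tap2, Tapbp, Cd74, Ciita, Nlrc5, Psmb8, Psmb9 and Psmb10. By this rule 54 of 24984 genes listed in the tumor tables were members, and 53 of 24421 in the sprout tables. 44 members carry an H2- symbol, and H2-T-ps was listed in the tumor tables alone.

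The tumor ECs were CD31+/CD105+ cells, sorted per the study's methods without CD45+ leukocytes and dead cells, from E0771 tumors, a C57BL/6 mammary carcinoma line grown in the mammary fat pad, with 100 cells sorted into each Smart-Seq2 library. The 3 Apelin-depleted libraries came from Apln-/- mice (C57BL6/J) that carried tumor cells with shApln, and the 6 Apelin wild-type libraries from wild-type mice that carried cells with shRenilla, so Apelin was absent from the host and reduced in the tumor cells together. The sprout ECs were CD31+ cells from EBs of a haploid embryonic stem cell line on C57BL/6x129, in which a gene trap lies in Apln, and all EBs received 30 ng/ml VEGF. The trap was in the sense orientation in the 2 libraries labelled Apln STOP, with DMSO, and had been inverted by Cre in the 2 libraries labelled Apln GO, with 1000 nM Apelin (Pyr13), so that genotype and added peptide cannot be told apart. The orientation is in the labels, and the treatment of each group is from the study's text. Whether the replicates came from separate animals or cultures is not given in the labels, so the p-values measure the spread between these libraries. All fold changes are Apelin-depleted over wild-type, or Apln STOP over Apln GO.

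MHC class I molecules display peptides from inside the cell to CD8 T cells. Each is a heavy chain (H2-K1 and H2-D1 in C57BL/6) paired with B2m, and it is loaded with peptides that the immunoproteasome (Psmb8, Psmb9, Psmb10) cuts and that Tap1 and Tap2 carry into the endoplasmic reticulum, where Tapbp holds the heavy chain at the transporter. MHC class II molecules show peptides from outside the cell to CD4 T cells and need the invariant chain Cd74 and the exchange factor H2-DM. Nlrc5 drives transcription of class I genes and Ciita that of class II genes, and interferon gamma raises both in ECs, whose class I is otherwise constitutive.

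Total counts were 4661044 to 14455093 per tumor library and 12327030 to 16804071 per sprout library, at which 3 counts correspond to 0.211 to 0.593 CPM (counts scaled to library size with TMM factors) and 0.177 to 0.244 CPM. This floor covers counting error only. Apln fell from 414 to 1028 CPM in the wild-type tumor libraries to 2.43 to 12 CPM in the Apelin-depleted libraries (log2 fold change -6.70, adjusted p = 6.13e-05, edgeR's quasi-likelihood test). In sprout ECs Apln was not lower in the libraries labelled Apln STOP (66.0 and 80.1 CPM) than in those labelled Apln GO (58.1 and 65.9 CPM, adjusted p = 0.367), and directions below follow the library labels. All 10 endothelial markers had counts in every library. Their summed level was 7023 to 10679 CPM in the wild-type and 10150.0 to 13281 CPM in the Apelin-depleted tumor libraries, 625 and 847 CPM in the Apln STOP libraries and 2514 and 2297 CPM in the Apln GO libraries.

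Members took 1.03 to 2.3% of all counts in the tumor libraries and 0.0452 to 0.0538% in the sprout libraries. The sets were counted and scaled separately, so these shares were set side by side without a test. Of the members, 28 had a count in every tumor library and 33 in every sprout library, while 5 and 12 had none in any library of the set. In the annotation of the files' build (GRCm38, GENCODE M21) 45 of the 50 members with an entry lie on chromosome 17, between positions 33915899 and 37483552, a span of 3.57 Mb. B2m lies on chromosome 2, Nlrc5 and Psmb10 on chromosome 8, Ciita on chromosome 16 and Cd74 on chromosome 18.

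Which MHC genes do tumor ECs express, and does their level follow Apelin? Per kb of transcript, the level of B2m was highest among the members (5276 ± 1605 CPM per kb, SD, n = 9 libraries), followed by H2-K1 (3392 ± 1402), H2-D1 (1428 ± 423), Psmb8 (670.0 ± 279.5), Tapbp (281 ± 68.8), Psmb9 (235.0 ± 101.0) and Psmb10 (191 ± 75.2). The ranges over the 9 libraries overlapped between every pair of neighbours in this order. The class II chain Cd74 came next at 181 ± 210 CPM per kb, a spread larger than its mean.

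Of the 54 members, 30 passed the filter on low counts and were tested. None was called with edgeR (adjusted p under 0.05 and more than 1 log2 unit in either direction), where 0.00765% of the 13073 genes tested were called lower and 0% higher, and none with DESeq2 or limma voom. Before adjustment, 0 members were lower and 1 was higher at p under 0.05, against 2.94% and 1.87% of all genes tested. The count of higher members was 0 without Apelin-depleted replicate 1 or 2 or wild-type replicate 3, 4 or 5, 2 without Apelin-depleted replicate 3 or wild-type replicate 1, and 4 without wild-type replicate 6. For these fits the share of all genes at that threshold was not counted. For 0 members did the Apelin-depleted libraries lie all below or all above the wild-type libraries, against 1.28% and 1.09% of all genes. Of the 30 tested, 23 had a positive log2 fold change and 7 a negative one, against 6289 and 6784 of all 13073 genes tested. The median of the 30 was 0.28 against -0.03 for all genes tested. All 10 endothelial markers were positive as well, with a median of 0.36. Some members rise and fall together across the libraries (below), so the 30 are not separate observations.

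B2m, the light chain of every class I molecule, read 5851, 3580, 3205, 2907, 2913 and 6503 CPM in wild-type libraries 1 to 6. In Apelin-depleted libraries 1 to 3 it read 5160, 5298 and 5324 CPM. The Apelin-depleted libraries lay close together and inside the range of the wild-type libraries, in which replicates 1 and 6 stood above the other four. The log2 fold change was 0.34 (95% interval -0.32 to 1.00, adjusted p = 1, edgeR).

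H2-K1, a classical heavy chain, read 7441, 3080, 2695, 3672, 6838 and 8131 CPM in the wild-type libraries and 5349, 4169 and 8868 CPM in the Apelin-depleted libraries. H2-D1, the other classical heavy chain of this strain, read 3342, 1700, 1581, 1951, 2074 and 3406 CPM in wild-type and 2455, 2410 and 3401 CPM in Apelin-depleted libraries. In both genes wild-type replicates 2 and 3 were lowest, wild-type replicates 1 and 6 and Apelin-depleted replicate 3 were among the highest, and the groups overlapped. Their log2 fold changes were 0.21 (95% interval -0.61 to 1.02) and 0.23 (-0.42 to 0.88). H2-L, a classical heavy chain of other strains, had no count in any tumor library.

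The genes of peptide supply overlapped between the groups as well. Psmb8, the immunoproteasome subunit that takes the place of Psmb5, read 908, 552, 485, 521, 1316 and 1206 CPM in wild-type and 565, 613 and 1209 CPM in Apelin-depleted libraries. Psmb9 lay between 87.6 and 267 CPM in wild-type and between 132 and 296 CPM in Apelin-depleted libraries, and Psmb10 between 102 and 338 and between 188 and 372 CPM. Of the transporter, Tap1 lay between 216 and 511 CPM in wild-type and between 287 and 436 CPM in Apelin-depleted libraries, and Tap2 between 82.2 and 340 and between 199.7 and 310 CPM. Tapbp, which holds class I at the transporter, lay between 537 and 1125 CPM in wild-type and between 575 and 840 CPM in Apelin-depleted libraries. The log2 fold changes of these 6 genes ran from -0.10 (Tapbp) to 0.51 (Psmb9), and each had an adjusted p of 1.

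Nlrc5, the class I transactivator, was the 1 member with an unadjusted p under 0.05. It read 56.4, 56.2, 42.1, 20.5, 27.6 and 52.2 CPM in wild-type and 73.4, 109 and 54.0 CPM in Apelin-depleted libraries. Apelin-depleted replicate 3 lay below wild-type replicates 1 and 2, so the groups overlapped. The log2 fold change was 0.89 (95% interval 0.05 to 1.73, adjusted p = 1, edgeR). The interferon-induced regulator Irf1 read 340 to 820 CPM in Apelin-depleted and 277 to 547 CPM in wild-type libraries (log2 fold change 0.71, adjusted p = 1).

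**Figure D1:**
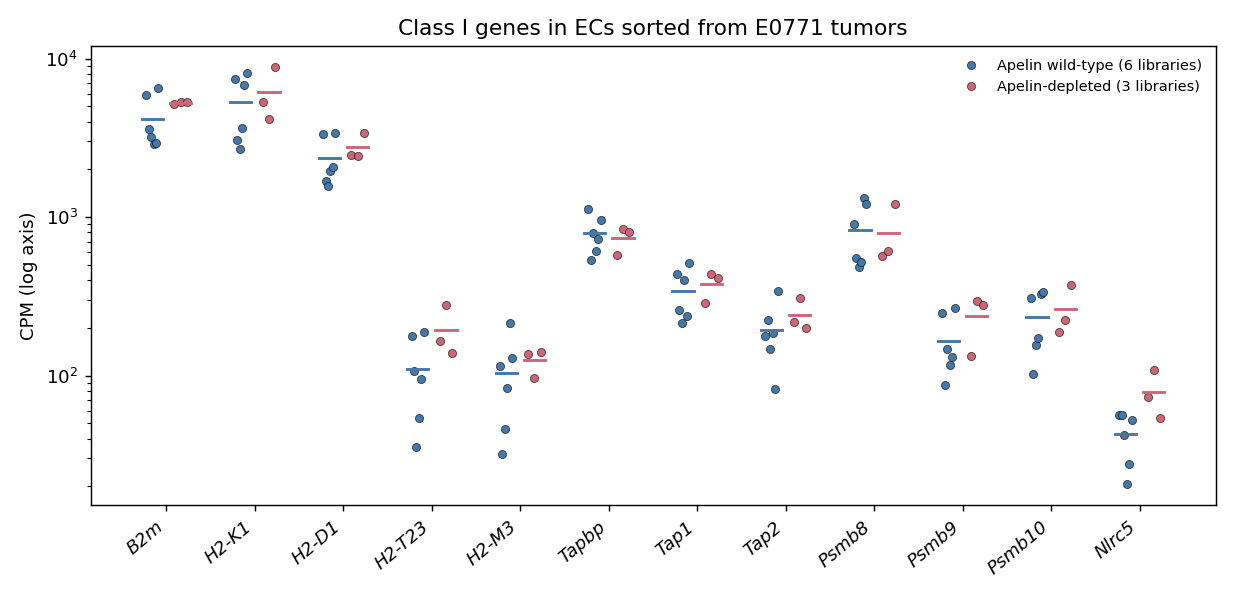
CPM on a log axis of 12 class I genes in each tumor library. Points are libraries and bars are group means. The 3 Apelin-depleted libraries fall inside the span of the 6 wild-type libraries for B2m, which run from 2907 to 6503 CPM, and no gene shown separates the groups.

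The level of H2-K1 was set against genes of the class I pathway over the 9 tumor libraries on a log2(CPM + 1) scale, with p-values adjusted over 11 relations, of which 10 are given here. Psmb10 followed H2-K1 most closely (r = 0.915, exact permutation p = 0.00105, adjusted p = 0.00964, rho = 0.950 with p = 0.000353 and adjusted p = 0.00388). H2-D1 followed it as well (r = 0.898, exact permutation p = 0.00228, adjusted p = 0.00964, rho = 0.933 with p = 0.00075 and adjusted p = 0.00412). So did Psmb8 (r = 0.898, exact permutation p = 0.00377, adjusted p = 0.0104, rho = 0.867 with p = 0.00451 and adjusted p = 0.0124). All tests were two-sided. How many of all genes reach such an r with H2-K1 over these libraries was not counted, so the relations are not shown to be particular to the pathway. Without wild-type replicates 2 and 3, the libraries farthest from the median of H2-K1, r was 0.918 for Psmb10, 0.784 for H2-D1 and 0.886 for Psmb8.

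Within the 6 wild-type libraries H2-D1 kept the order of H2-K1 in every library (r = 0.893, exact permutation p = 0.00972, adjusted p = 0.0535, rho = 1 with p = 0.00278 and adjusted p = 0.0153). Psmb8 (r = 0.934, exact p = 0.0486, adjusted p = 0.134, rho = 0.771 with p = 0.103 and adjusted p = 0.188) and Psmb10 (r = 0.930, exact p = 0.0361, adjusted p = 0.132, rho = 0.886 with p = 0.0333 and adjusted p = 0.122) did not pass the adjusted threshold there. The 3 Apelin-depleted libraries were too few for a correlation of their own.

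Of the other 7 genes (B2m, Tap1, Tap2, Tapbp, Psmb9, Nlrc5 and Irf1) none passed an adjusted p of 0.05 over the 9 libraries. B2m (r = 0.610, exact p = 0.0841, adjusted p = 0.154, rho = 0.683 with p = 0.0503 and adjusted p = 0.111) fell to an r of 0.468 without the same 2 libraries. Tap1 (r = 0.539, exact p = 0.134, adjusted p = 0.189, rho = 0.6 with p = 0.0968 and adjusted p = 0.177) fell to 0.088. Nlrc5 (r = 0.0773, exact p = 0.841, adjusted p = 0.925, rho = 0.117 with p = 0.776 and adjusted p = 0.776) and Tap2 (r = 0.0147, exact p = 0.972, adjusted p = 0.972, rho = 0.150 with p = 0.708 and adjusted p = 0.776) had r near 0. H2-K1 and H2-D1 share 141 windows of 50 bases in their annotated transcripts, so their counts are not fully separate measures.

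Cell markers also differed between these libraries. Wild-type replicate 2, low in H2-K1, had a summed level of mural cell and fibroblast markers of 3435 CPM, with Dcn at 2083 and Col1a1 at 876 CPM, and the other tumor libraries had 45.9 to 249 CPM. Wild-type replicate 3, as low in H2-K1, had 76.8 CPM of these markers. The 7 markers of T and NK cells measured summed to 26.2, 37.9 and 114 CPM in the Apelin-depleted libraries and to 0.141 to 3.10 CPM in the wild-type libraries, mostly from Cd2 (adjusted p = 0.197, edgeR) and, in replicate 3, Cd3g, with Cd3e and Cd3d at 0 in replicate 2. The 5 neutrophil markers summed to 0.243 to 2.88 CPM in the Apelin-depleted and 2.04 to 22.2 CPM in the wild-type libraries, with S100a8 at 0 in all 3 Apelin-depleted libraries (adjusted p = 0.686, edgeR). The 5 B cell markers summed to 0.676 to 2.18 and 1.41 to 21.5 CPM. Their part in the levels of class I genes was not tested. In bulk libraries fewer cells of a type and less RNA per cell cannot be told apart.

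Promoters of the class I chains B2m, H2-K1 and H2-D1 are shown because the textbook class I promoter holds an interferon response element, an NF-kB site and a proximal block of a CRE half-site and an inverted CCAAT box. The sequences are the 200 bases before the first listed start site, 5′ to 3′ on the gene's strand, from RefSeq on GRCm38.p6. Capitals mark matches on either strand to the interferon response letters (GAAA and GAAA with any 2 bases between), the NF-kB letters (GGGA and CC with any 4 bases between), TGACG (CRE half-site) and CCAAT, of which adjoining or overlapping matches run together. H2-T23, H2-Aa and H2-Eb1 are added as a nonclassical class I gene and as class II chains:

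B2m (chr2:122147487-122147686, + strand): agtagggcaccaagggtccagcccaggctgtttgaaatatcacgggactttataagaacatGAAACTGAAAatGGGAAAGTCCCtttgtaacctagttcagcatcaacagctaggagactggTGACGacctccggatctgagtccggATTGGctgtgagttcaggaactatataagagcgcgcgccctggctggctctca
H2-K1 (chr17:34000348-34000547, - strand): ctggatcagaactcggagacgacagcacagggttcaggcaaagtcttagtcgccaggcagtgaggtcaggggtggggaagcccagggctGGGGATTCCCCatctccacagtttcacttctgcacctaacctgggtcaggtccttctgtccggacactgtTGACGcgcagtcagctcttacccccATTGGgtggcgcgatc
H2-D1 (chr17:35262894-35263093, + strand): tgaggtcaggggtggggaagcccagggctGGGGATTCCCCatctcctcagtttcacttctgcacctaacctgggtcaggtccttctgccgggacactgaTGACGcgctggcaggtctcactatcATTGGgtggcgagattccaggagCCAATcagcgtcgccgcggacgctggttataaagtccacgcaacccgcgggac
H2-T23 (chr17:36032702-36032901, - strand): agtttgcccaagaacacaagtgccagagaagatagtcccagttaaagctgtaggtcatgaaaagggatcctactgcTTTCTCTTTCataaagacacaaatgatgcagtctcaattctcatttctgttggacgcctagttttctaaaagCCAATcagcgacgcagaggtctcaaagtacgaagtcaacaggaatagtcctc
H2-Aa (chr17:34287824-34288023, - strand): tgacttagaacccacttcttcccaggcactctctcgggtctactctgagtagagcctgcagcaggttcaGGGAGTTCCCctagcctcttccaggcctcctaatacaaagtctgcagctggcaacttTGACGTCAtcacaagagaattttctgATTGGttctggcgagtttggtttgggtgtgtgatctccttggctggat
H2-Eb1 (chr17:34305667-34305866, + strand): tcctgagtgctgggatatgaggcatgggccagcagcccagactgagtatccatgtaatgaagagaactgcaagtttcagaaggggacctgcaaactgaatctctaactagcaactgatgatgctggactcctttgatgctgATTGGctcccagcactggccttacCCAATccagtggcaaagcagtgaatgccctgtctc

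Counted from the start site at which the gene begins, B2m holds the interferon response letters at -139 to -130 and its NF-kB match at -127 to -117. Its CRE half-site lies at -78 to -74 and its inverted CCAAT at -53 to -49. H2-K1 and H2-D1 hold an NF-kB match, a CRE half-site and an inverted CCAAT in the same order, with the NF-kB match of each inside a run of 46 bases that is the same in both windows. An exact match to the interferon response letters is in neither of these windows. Elements that differ from these letters were not looked for, so the missing match does not show that such an element is absent. The windows of Psmb8 and Psmb10 hold none of the 4 sets of letters. By the GENCODE positions the windows of Psmb8 and H2-D1 lie inside the gene, and that of Psmb10 lies partly inside it. Whether these letters relate to the levels in ECs was not tested. H2-T23 has the interferon response letters on the opposite strand at -124 to -115.

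Among the 38 members for which a start site was used, CCAAT was found in 31, the CRE half-site in 14, the NF-kB letters in 11 and the interferon response letters in 3. Over all 32851 windows of this length the shares with a match were 29.3%, 15.7%, 14.9% and 2.27%. Members are copies of common ancestors and are not independent, and a match of letters is not a bound site.

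Class II genes were low and uneven in the tumor ECs. Cd74, the invariant chain that occupies the class II groove, read 75.9, 27.6, 56.4, 272, 50.3 and 801 CPM in wild-type and 135, 496 and 114 CPM in Apelin-depleted libraries. H2-Ab1, the beta chain of I-A, read 75.6, 89.0, 23.9, 60.5, 81.9 and 312 CPM in wild-type and 102, 170 and 165 CPM in Apelin-depleted libraries. Wild-type replicate 6 was highest for both genes, followed for each by Apelin-depleted replicate 2, and the groups overlapped.

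H2-Aa, the alpha chain of I-A, lay between 2.6 and 74.9 CPM in wild-type and between 17.6 and 35.5 CPM in Apelin-depleted libraries. H2-Eb1, the beta chain of I-E, read 6.74, 1.84, 15.2, 6.52, 2.77 and 44.0 CPM in wild-type and 63.4, 39.8 and 12.6 CPM in Apelin-depleted libraries. Its log2 fold change was 1.59 (95% interval -0.13 to 3.30, adjusted p = 1, edgeR). The I-E alpha chain is a pseudogene in this strain, and H2-Ea-ps did not exceed 0.588 CPM in any tumor library. Log2 fold changes of Cd74, H2-Ab1 and H2-Aa were 0.22, 0.44 and -0.23, each with an interval wider than 2 units and an adjusted p of 1.

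H2-DMa and H2-DMb1, the chains of the peptide exchange factor, lay between 7.18 and 37.9 CPM and between 7.10 and 61.6 CPM in wild-type, and between 2.6 and 30.0 CPM and between 23 and 52.1 CPM in Apelin-depleted libraries. H2-DMb2, the other DM beta chain, was above 1 CPM in wild-type replicate 1 alone, at 8.38 CPM. H2-Oa and H2-Ob, which restrain H2-DM, reached 2.57 and 12.4 CPM at most. Ciita, the class II transactivator, read 0.910, 0.0971, 0.294, 5.93, 10.6 and 15.4 CPM in wild-type and 4.06, 9.34 and 8.27 CPM in Apelin-depleted libraries (log2 fold change 0.39, 95% interval -2.23 to 3.01, adjusted p = 1). Its highest library was again wild-type replicate 6. H2-Eb2 did not exceed 0.846 CPM.

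Macrophages, dendritic cells and B cells express class II at high levels, so their markers were read in the same libraries, although the sort was set to remove CD45+ cells. The 4 leukocyte markers summed to 24.5 CPM in wild-type replicate 6 and 2.6 CPM in Apelin-depleted replicate 2, where Ptprc and Cd52 were at 0. Elsewhere they summed to 15.1 to 321 CPM, with the highest levels in Apelin-depleted replicate 1 and wild-type replicate 4. The 11 macrophage markers summed to 48.6 and 12.9 CPM in wild-type replicate 6 and Apelin-depleted replicate 2, and to 834 and 560 CPM in Apelin-depleted replicate 1 and wild-type replicate 4, with Lyz2 at 598 and 453 CPM. The 8 dendritic cell markers summed to 29.1 to 37.6 CPM in 8 libraries and to 59.4 CPM in Apelin-depleted replicate 2, where Zbtb46, which ECs also express, made up 48.9 CPM. Of these 8 markers, 4 had a count in wild-type replicate 6 and 6 in Apelin-depleted replicate 2, and Batf3, at 8.32 and 5.19 CPM there, ran from 0 to 10.1 CPM elsewhere. The 5 B cell markers summed to 1.41 and 2.18 CPM there and to 0.676 to 21.5 CPM elsewhere. After these 2 libraries, Cd74 was next highest in wild-type replicate 4 and Apelin-depleted replicate 1, at 272 and 135 CPM, which held the highest leukocyte and macrophage sums. The part of other cells in the class II levels was not tested. Without Apelin-depleted replicate 1 and wild-type replicate 4, a choice made after these values were seen, 0 members were called.

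**Figure D2:**
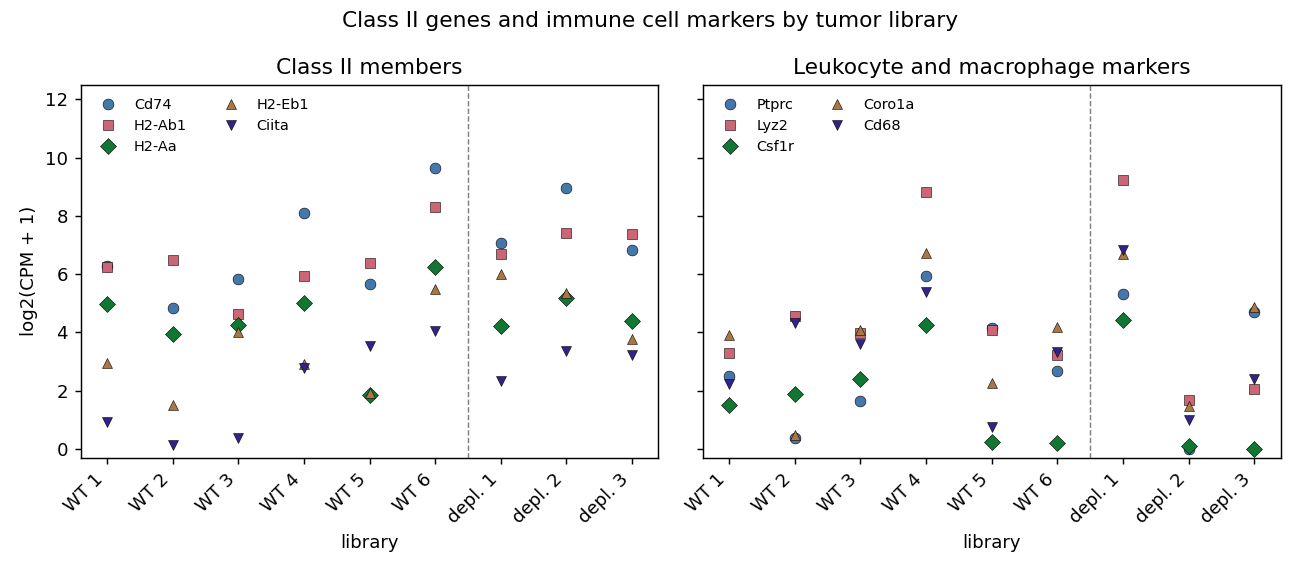
Class II members (left) and leukocyte and macrophage markers (right) in each tumor library, as log2(CPM + 1). Cd74 peaks in wild-type replicate 6 (801 CPM) and Apelin-depleted replicate 2 (496 CPM), while Lyz2 peaks in Apelin-depleted replicate 1 (598 CPM) and wild-type replicate 4 (453 CPM).

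Nonclassical (class Ib) heavy chains show a narrower range of ligands than H2-K1 and H2-D1. Of 30 genes listed as such in the tumor tables, 11 were tested and 4 had no count. In the annotation H2-Bl, H2-Q5 and H2-T10 are polymorphic pseudogenes, and H2-K2 and H2-T-ps are pseudogenes. H2-T23 (Qa-1), a ligand of NK cell receptors, read 177, 106, 35.6, 54.3, 95.6 and 187 CPM in wild-type and 165, 277 and 139 CPM in Apelin-depleted libraries. All 3 Apelin-depleted libraries lay above wild-type replicates 2 to 5 and overlapped with replicates 1 and 6 (log2 fold change 0.82, 95% interval -0.12 to 1.77, adjusted p = 1).

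H2-M3, which presents formylated peptides, lay between 32.0 and 215 CPM in wild-type and between 96.0 and 141 CPM in Apelin-depleted libraries. H2-Q5 lay between 5.72 and 42.0 and between 29.6 and 60.1 CPM, and H2-K2 between 6.56 and 43.9 and between 16.1 and 27.6 CPM. No other class Ib member exceeded 36.5 CPM in a library, and H2-M10.1 to H2-M10.6 stayed at or below 1.65 CPM. H2-Ke6, an H2- symbol for an enzyme of steroid and fatty acid metabolism and not an MHC chain, lay between 8.74 and 43.9 CPM in wild-type and between 2.88 and 29.1 CPM in Apelin-depleted libraries (log2 fold change -0.91, adjusted p = 1).

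The 39 other genes of the pathway that were listed around the members (chaperones and trimming enzymes, constitutive proteasome subunits, class I-like molecules outside H2, class II proteases, regulators and costimulators) were read in the same fits. Of 37 tested in tumor ECs, 0 were called with edgeR, with DESeq2 or with limma voom. Before adjustment, 1 of them, Irf1, was higher and 0 lower at p under 0.05, against 1.87% and 2.94% of all genes tested. Psmb5, Psmb6 and Psmb7, the constitutive subunits that the immunoproteasome replaces, had log2 fold changes of -0.20, -0.33 and -0.19, against -0.06, 0.51 and 0.16 for Psmb8, Psmb9 and Psmb10, and none of these 6 passed the test. Cd274 (PD-L1) had 16.2 to 93.3 CPM in Apelin-depleted and 4.66 to 53.7 CPM in wild-type libraries (log2 fold change 1.31, adjusted p = 1).

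How do the same genes stand in CD31+ cells sorted from sprouting EBs? These cells are called sprout ECs after the sort, but in the Apln STOP libraries the summed level of 5 pluripotency markers, 3763 and 3844 CPM, was above that of the 10 endothelial markers, 625 and 847 CPM. By HTSeq counts of uniquely aligned reads, B2m was highest per kb of transcript in the sprout ECs as well (97.1 ± 49.3 CPM per kb, SD, n = 4 libraries), then H2-K1 (42.1 ± 6.81), Tapbp (36.0 ± 10.4), H2-Ke6 (24.4 ± 3.79) and Psmb10 (22 ± 7.18). H2-Ke6 shares 86.4% of its exon bases with Gm20427 on the same strand, so its level is uncertain. H2-D1 stood lower, at 9.77 ± 3.47 CPM per kb. These are means over both groups, and in Apln STOP replicate 1 Tapbp (51.4 CPM per kb) lay above B2m (42.1 CPM per kb). RSEM gave another order, with a mean TPM (length-scaled transcript abundance) of 321 for H2-T23, 146 for B2m, 93.8 for H2-Q4 and 67.0 for H2-K1. Cd74, Ciita and Nlrc5 did not exceed 0.733, 0.203 and 0.609 CPM in any sprout library, and none of these 3 passed the filter. The 4 leukocyte markers summed to 21.3 to 44.3 CPM, with Ptprc at 0 to 0.968 CPM, and the macrophage marker Lyz2 stood at 0.163 to 0.677 CPM.

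Of the 53 members 27 were tested in the sprout ECs, and 0 were called with edgeR, where 3.03% of the 14557 genes tested were called lower and 0.852% higher. Without the fold threshold 1 member, Psmb10, was higher and 0 were lower, against 1.92% and 4.3% of all genes. Before adjustment, at p under 0.05, 4 members were lower and 5 higher (14.8% and 18.5% of those tested), close to the 14.3% and 12.4% of all genes. With 2 libraries a group, 5 members lay wholly below in the Apln STOP libraries (18.5%) and 14 wholly above (51.9%), against 29.6% and 31.1% of all genes. DESeq2 called 4 members, B2m and H2-DMa lower and H2-Eb1 and H2-M5 higher, while it called 4.65% of 13492 genes lower and 1.47% higher.

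The light chain B2m and the classical heavy chains H2-K1 and H2-D1 read lower in both libraries labelled Apln STOP, and none of the 3 passed the adjusted threshold in edgeR. Of the 11 class Ib genes tested, 9 had a positive log2 fold change, against 7346 of all 14557 genes tested. Before adjustment 2 of the 9 had a p under 0.05 (edgeR). H2-Bl, H2-K2 and H2-T10 among the 9 are annotated as pseudogenes. Class Ib genes share stretches of sequence, so their counts are not fully separate measures. B2m read 36.1 and 63.8 CPM in Apln STOP and 133 and 100.2 CPM in Apln GO libraries. The groups did not overlap, and the log2 fold change was -1.23 (95% interval -2.00 to -0.45, adjusted p = 0.0853 with edgeR and 0.000625 with DESeq2). It was called by edgeR without Apln STOP replicate 2 (log2 fold change -1.71, adjusted p = 0.00682) and not without any other library (adjusted p 0.117 to 0.403).

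H2-D1 read 10.7 and 13.1 CPM in Apln STOP and 23.4 and 20.6 CPM in Apln GO libraries (log2 fold change -0.89, 95% interval -1.41 to -0.37, adjusted p = 0.0567). H2-K1 read 62.5 and 58.0 CPM against 74.2 and 82.7 CPM (log2 fold change -0.38, 95% interval -0.71 to -0.05, adjusted p = 0.141). Both heavy chains lay lower in each Apln STOP library than in each Apln GO library, by less than B2m did. H2-L had at most 0.484 CPM and was not tested.

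None of the 6 processing genes was called. Psmb10 read 38.7 and 32.1 CPM in Apln STOP and 21.4 and 19.4 CPM in Apln GO libraries, with no overlap. Its log2 fold change of 0.80 (95% interval 0.37 to 1.22) had an adjusted p of 0.047, which passed the p threshold and not the fold threshold, and it ended above 0.05 with any 1 library left out (adjusted p 0.0632 to 0.280). Psmb8 read 23.8 and 15.5 CPM against 12.3 and 9.03 CPM (log2 fold change 0.88, adjusted p = 0.106), and Psmb9 read 14.1 and 9.20 CPM against 6.54 and 8.31 CPM (0.66, adjusted p = 0.216).

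Tapbp read 141 and 89.6 CPM in Apln STOP and 79.0 and 85.6 CPM in Apln GO libraries (log2 fold change 0.49, adjusted p = 0.213). Tap1 (0.43, adjusted p = 0.347) and Tap2 (0.30, adjusted p = 0.498) overlapped between the groups. For all 3 immunoproteasome genes and for Tapbp, Tap1 and Tap2 the highest value was in Apln STOP replicate 1, which also held the lowest B2m.

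**Figure D3:**
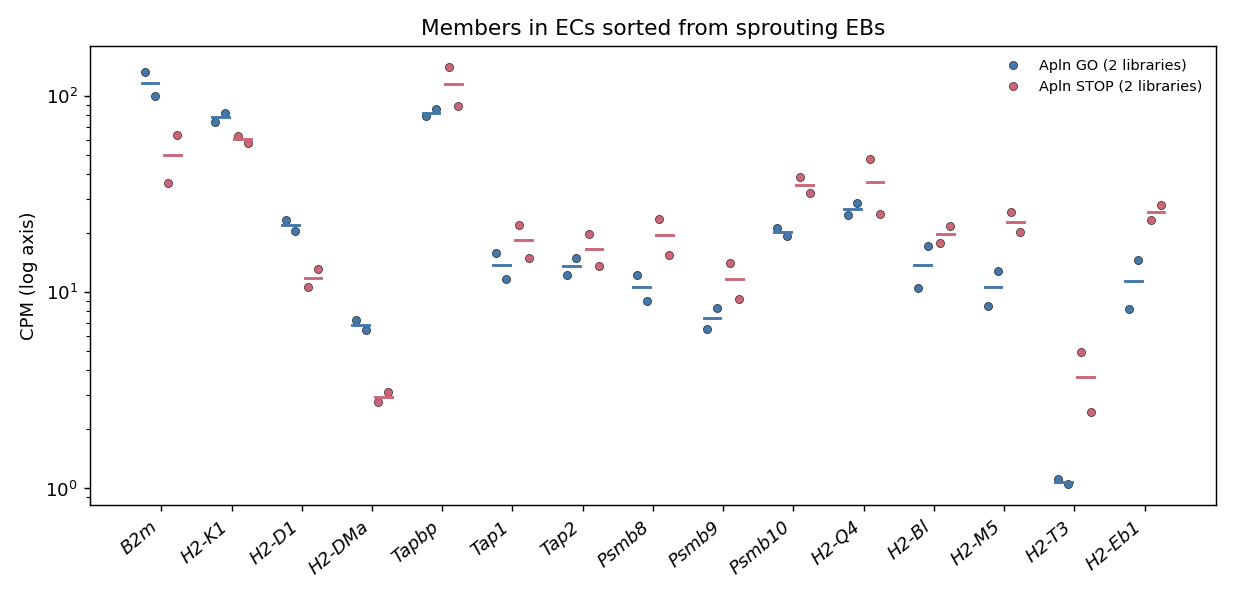
CPM on a log axis of 15 members in each sprout library, with 2 libraries a group and bars at the group means. B2m, H2-K1, H2-D1 and H2-DMa lie lower in the Apln STOP libraries, and Psmb8, Psmb9, Psmb10, H2-M5, H2-T3 and H2-Eb1 lie higher.

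H2-Eb1 was the class II gene with most counts in the sprout ECs, at 23.5 and 28.0 CPM in Apln STOP and 8.19 and 14.6 CPM in Apln GO libraries. The groups did not overlap (log2 fold change 1.18, 95% interval 0.49 to 1.88, adjusted p = 0.059 with edgeR and 0.00723 with DESeq2). The I-E alpha pseudogene H2-Ea-ps reached 0.0589 CPM at most. The I-A chains were low, with H2-Ab1 at 1.00 to 1.69 CPM and H2-Aa at 0.651 to 1.53 CPM. All 1991 windows of 50 bases in the annotated transcripts of H2-Eb1 are in no other annotated gene.

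H2-DMa read 2.77 and 3.09 CPM in Apln STOP and 7.25 and 6.45 CPM in Apln GO libraries (log2 fold change -1.22, 95% interval -1.98 to -0.47, adjusted p = 0.0668 with edgeR and 0.0476 with DESeq2). It shares 10.4% of its exon bases with Brd2 on the opposite strand, and since no strand setting is given in the sources used here, reads of the pair may not be separated. The same holds for Tapbp (24.9% of exon bases under Gm19412), H2-Q4 (19.1%, Gm11131), Psmb8 (14.7%, Gm20496) and Tap2 (14.1%, Gm15821). H2-DMb1 and H2-DMb2 stayed at or below 2.44 and 1.29 CPM, and H2-Oa, H2-Ob and H2-Eb2 at or below 0.403, 0.177 and 0.484 CPM.

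Of 29 class Ib members in the sprout tables, 11 were tested and 12 had no count. H2-M5 read 25.6 and 20.3 CPM in Apln STOP and 8.49 and 12.8 CPM in Apln GO libraries, without overlap (log2 fold change 1.11, 95% interval 0.49 to 1.73, adjusted p = 0.0517 with edgeR and 0.00738 with DESeq2). Without Apln GO replicate 2, edgeR called H2-M5 (1.44, adjusted p = 0.0327) and H2-Eb1 (1.65, adjusted p = 0.021). H2-M5 did not exceed 0.910 CPM in any tumor library.

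H2-T3, the thymus leukemia antigen, read 4.94 and 2.44 CPM in Apln STOP and 1.12 and 1.05 CPM in Apln GO libraries (log2 fold change 1.76, 95% interval 0.62 to 2.91, adjusted p = 0.0767). H2-Q4 read 48.0 and 25.2 CPM against 24.9 and 28.5 CPM, H2-Bl 17.9 and 21.7 CPM against 10.5 and 17.2 CPM, and H2-Q10 8.53 and 3.74 CPM against 3.06 and 5.48 CPM. The adjusted p of these 3 genes ran from 0.273 to 0.515, and their groups overlapped apart from H2-Bl.

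**Figure D4:**
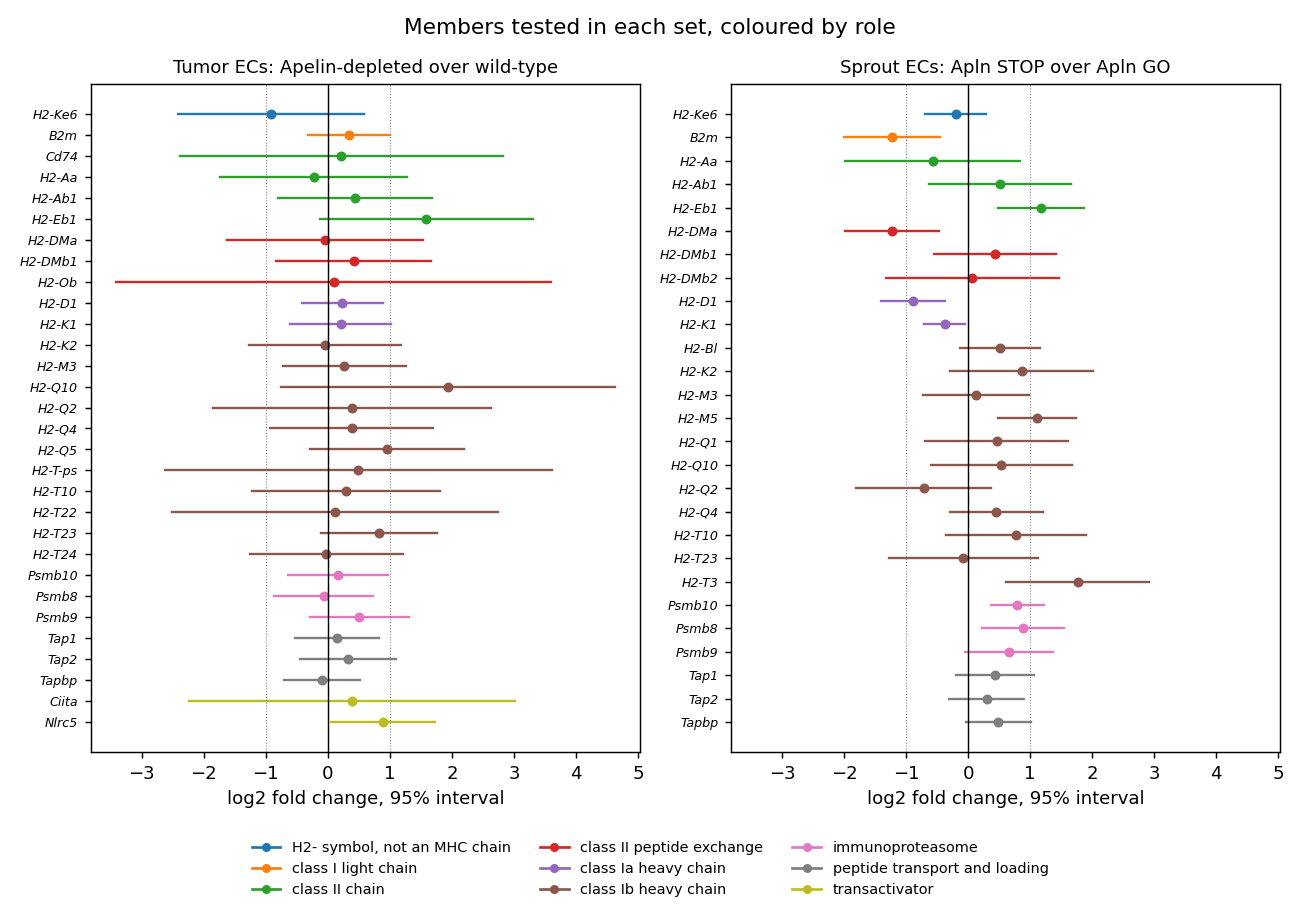
Log2 fold change (points) and 95% interval (lines) from edgeR for the 30 members tested in tumor ECs and the 27 tested in sprout ECs, coloured by role, with dotted lines at -1 and 1. All tumor intervals but that of Nlrc5 span 0, and in the sprout ECs B2m, H2-D1, H2-K1 and H2-DMa lie left of 0 while H2-Eb1, H2-M5, H2-T3, Psmb8 and Psmb10 lie right of it.

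The libraries differed in their cells as well. All 10 endothelial markers were lower in the Apln STOP libraries and 9 were called (Tie1, log2 fold change -2.26, adjusted p = 0.00242, edgeR). The 5 pluripotency markers summed to 3763 and 3844 CPM in Apln STOP and 1316 and 2265 CPM in Apln GO libraries, all 5 higher in Apln STOP and 1, Dppa5a, called (1.28, adjusted p = 0.0227). The 8 mural cell and fibroblast markers split each group, at 350 and 1679 CPM in Apln STOP replicates 1 and 2 and 2072 and 454 CPM in Apln GO replicates 1 and 2. The part of these differences in the levels of the members was not tested.

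Of 39 other pathway genes, 35 were tested in the sprout ECs and 4 were called, all lower in Apln STOP, against the 3.03% lower and 0.852% higher of all genes tested. Cd40, a receptor that activates antigen presenting cells and is also found on ECs, read 5.75 and 7.24 CPM against 20.9 and 19.4 CPM (log2 fold change -1.64, adjusted p = 0.0129, edgeR). Irf2, an interferon regulatory factor, read 6.23 and 10 CPM against 27.2 and 20.2 CPM (-1.55, adjusted p = 0.0273). Procr, the class I-like endothelial receptor of protein C, read 2.98 and 4.64 CPM against 10.2 and 10.3 CPM (-1.43, adjusted p = 0.0425), and Jak2, a kinase of the interferon gamma receptor, read 20.1 and 28.8 CPM against 60.6 and 46.9 CPM (-1.14, adjusted p = 0.0299).

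Without Apln STOP replicate 1 or without Apln GO replicate 1, 0 of the pathway genes were called. Irf1 read 161 and 95 CPM in Apln STOP and 80.0 and 74.6 CPM in Apln GO libraries (log2 fold change 0.73, adjusted p = 0.141). The constitutive subunits Psmb5, Psmb6 and Psmb7 also lay higher in each Apln STOP library, with log2 fold changes of 0.43, 0.26 and 0.41, and none of them was called. The median log2 fold change over the 27 members tested was 0.46 and over the 35 pathway genes 0.02, against 0.01 for all genes.

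How much of the class I family can these counts see? In the sprout ECs the same libraries were counted by HTSeq, which keeps uniquely aligned reads, and by RSEM, which shares reads among the places they align to. Summed over the 4 libraries, HTSeq gave under 50% of the RSEM expected count for 13 of the 30 members with at least 100 expected counts, and for 10% of all 13817 such genes, where the median was 100.1%. Class I genes are close in sequence, and 42.6 to 49.6% of alignments in these libraries were not unique.

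H2-T23 had 79 HTSeq counts and 15775 RSEM expected counts. In TPM it read 442 and 354 in Apln STOP and 185 and 302 in Apln GO libraries. B2m read 57.6 and 101 in Apln STOP and 255 and 171 in Apln GO, so H2-T23 was above B2m in every library but Apln GO replicate 1. By HTSeq CPM per kb it ranked 23 among the members, and its mean TPM was higher than that of any other member. In the annotated transcripts 85.5% of its 50-base windows are in no other gene, and why HTSeq left out its reads was not tested. Rounded RSEM counts gave it a log2 fold change of 0.84 (adjusted p = 0.155) against -0.08 from HTSeq (adjusted p = 0.935).

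H2-Q4 kept 28.4% of its expected count, H2-D1 48.2%, H2-T10 17.5%, H2-T22 2.6% and H2-Q7 0.313%. H2-Q6, H2-Q9 and H2-T9 had 0 HTSeq counts and 139, 60.8 and 435 expected counts. B2m, H2-K1, H2-M5, H2-Eb1 and Psmb10 kept 94.6 to 114% of theirs. With rounded RSEM counts the log2 fold changes of B2m, H2-D1, H2-Eb1, H2-M5 and Psmb10 were -1.27, -0.69, 1.17, 1.17 and 0.77, and 0 members were called.

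In the tumor tables, counted with featureCounts, H2-Q6, H2-Q7, H2-Q9, H2-T9 and H2-L had 0 counts in all 9 libraries. H2-T23 had 35.6 CPM or more there. Of the windows of 50 bases in the annotated transcripts of H2-Q6 and H2-Q7, 65.0% and 73.5% are in no other gene, and a count of 0 for them does not show absence. H2-Q5, which was counted in the tumor libraries, shares 393 windows with H2-Q7. Levels of the class Ib members that share windows with other genes are uncertain.

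**Figure D5:**
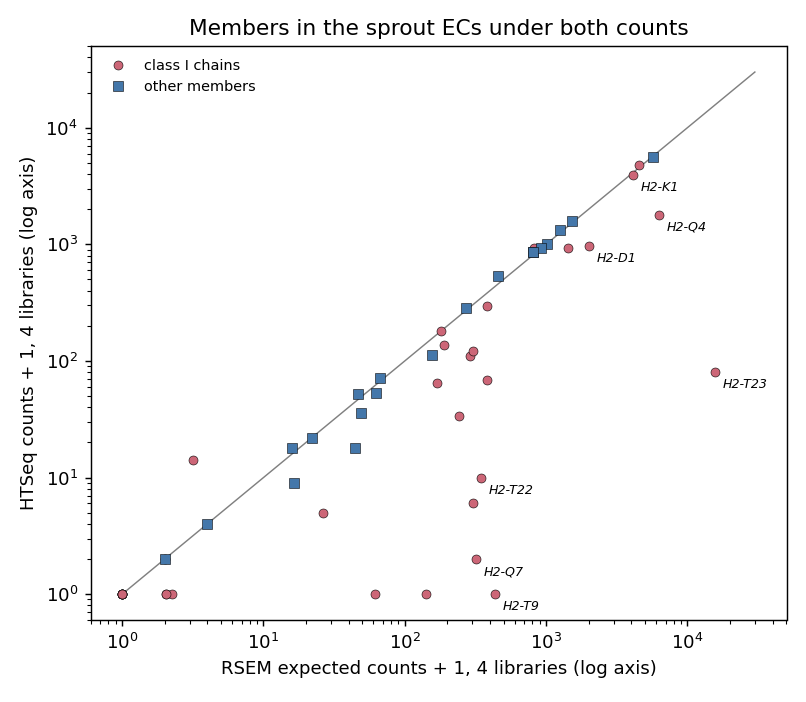
HTSeq counts against RSEM expected counts of each member, summed over the 4 sprout libraries, both plus 1 and on log axes, with the line of equal counts. H2-T23 lies below the line at 79 against 15775 counts, and 13 of the 30 members with at least 100 expected counts lie below 50% of equality, while B2m, H2-K1 and H2-M5 lie near it.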

How the data were processed

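RNA-Seq counts per gene of 9 tumor EC and 4 sprout EC libraries were grouped by the sample labels. Per the study's methods and the submitters' processing notes, reads were aligned to mm10 (tumor: the methods name STAR, the notes Bowtie2 2.3.4.1; sprout: STAR 2.5.0a). The authors deposited whole-number counts without normalization, from featureCounts (Subread 1.6.2; tumor) and HTSeq 0.6.1p1 (sprout). For the sprout libraries the authors also deposited RSEM 1.2.25 expected counts, TPM and FPKM, of which FPKM was not used. The 5 closing lines of the HTSeq tables name no gene and stayed out of library sizes and tests. Of all alignments tallied, 8.9 to 12% had no feature and 0.150 to 0.160% were ambiguous.

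After filterByExpr (minimum count 10) and TMM normalization, 1 edgeR 4.0.16 model per set was fitted in R 4.3.3 (robust quasi-likelihood test, Benjamini-Hochberg adjustment over all genes tested). Genes were called past 1 log2 unit and below an adjusted p of 0.05. Intervals (95%) use the standard error and degrees of freedom of that test. CPM per kb used the mean transcript length of the RSEM tables. The fit was tested on simulated data.

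Alternatives were DESeq2 1.42.0, its size factors in edgeR, other filters (none, or a mean of at least 10 counts), a block on replicate number, omission of the fold threshold, omission of each library, limma voom with quality weights (limma 3.58.1; tumor) and rounded RSEM expected counts (sprout). A crossed block and a fit without 2 tumor libraries were added after seeing the data. Members and lists were chosen with earlier results of these data known. Named were the 10 singly listed members, the classical heavy chains, the class II and exchange genes, the 4 class Ib genes highest in mean CPM in each set, H2- members or pathway genes called, and Irf1. The values of 1 further pathway gene are not reported here. Other genes were named after their values were seen.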

Additional observations from a re-analysis of the deposited data

Results flagged for a closer look

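Of 24 named members tested in the 6 wild-type tumor libraries, 5 had a library whose gap to the nearest other library, as a share of the range, passed Dixon's 95% critical value. For normal values chance alone flags about 5% of such groups. The rule was applied to CPM without a log scale, where the share flagged by chance can be higher. Genes of 1 library are not independent. In 4 of them the library was wild-type replicate 6, and all 4 are class II genes. Cd74 stood at 801 CPM against 27.6 to 272 CPM in the other 5 libraries, and H2-Ab1 at 312 CPM against 23.9 to 89.0 CPM. H2-DMb1 stood at 61.6 CPM against 7.10 to 23.3 CPM, and H2-Eb1 at 44.0 CPM against 1.84 to 15.2 CPM. In this library the leukocyte markers summed to 24.5 CPM (2.6 to 321 CPM in the other 8 tumor libraries), the macrophage markers to 48.6 CPM (12.9 to 834 CPM) and the dendritic cell markers to 34.8 CPM (29.1 to 59.4 CPM). Their part was not tested. In wild-type replicate 2, H2-Ob, a chain of the inhibitor of peptide exchange, stood at 12.4 CPM against 0 to 2.68 CPM.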

How the results depend on the processing

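In tumor ECs 0 members and 0 pathway genes were called under every alternative run. In sprout ECs, where edgeR called 0 members, 4 were called with DESeq2, 4 with no filter, 1 (Psmb10) without the fold threshold and 0 to 2 with each library left out. The 4 pathway genes called became 0 to 6 with each library left out, with 0 without Apln STOP replicate 1 or Apln GO replicate 1, and 0 with the replicate block. Deviations from the group mean correlated with -0.435 between same-numbered and 0.435 between differently numbered sprout libraries, which with 2 libraries a group is 1 value with either sign. A crossed replicate block, added after this was seen, called 5 members (0 with the same-number block) and 933 genes lower and 302 higher of all 14557 tested. The labels do not give that pairing and it was picked from these same data, so no conclusion is drawn from its calls. In tumor libraries same-numbered samples correlated between -0.14 and 0.0574, so the numbers did not pair them, and the replicate block called 0 members. Over all genes the sprout same-number replicate block called 41 lower and 3 higher, against 441 and 124 without a block and 632 and 222 of 19441 with no filter, and the tumor DESeq2 fit called 97 lower and 19 higher.

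Before adjustment, 6 tumor members were higher at p under 0.05 with the replicate block, against 1 without it. The share of all genes at that threshold was not counted for the blocked fit. Its numbers did not pair the libraries, and wild-type replicates 4 to 6 have no Apelin-depleted library of the same number. No conclusion is drawn from this count. Of tumor log2 fold changes that kept their sign, H2-Eb1 ran from 0.91 to 2.58 over the alternatives, H2-Ab1 from 0.24 to 1.35, H2-M3 from 0.078 to 1.15 and Ciita from 0.13 to 4.34, with no call.

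Several small log2 fold changes reversed, with no call on either side, and the cause was not tested. In tumor ECs the replicate block gave 0.26 for Psmb8, 0.22 for H2-Aa, -3.42 for H2-Ob, 0.63 for H2-K2 and -0.080 for Jak2. limma voom gave -1.94 for H2-Ob, 0.21 for H2-K2 and -0.051 for Procr. Without Apelin-depleted replicate 1 and wild-type replicate 4 the values were 0.032 for Psmb8, -5.25 for H2-Ob and 0.017 for H2-K2. With each library left out in turn, tumor values ran from -0.20 to 0.059 for Tapbp, -0.78 to 1.36 for Cd74, -0.49 to 0.14 for Psmb8, -0.17 to 0.36 for Psmb10, -0.16 to 0.42 for H2-K1, -0.61 to 0.34 for H2-Aa, -0.85 to 0.46 for H2-DMa, -0.075 to 0.92 for H2-DMb1, -5.15 to 1.32 for H2-Ob, -0.26 to 0.26 for H2-K2, -0.30 to 0.69 for H2-Q4, -0.12 to 0.19 for Procr and -0.28 to 0.28 for Jak2.

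In sprout ECs the crossed replicate block gave -0.014 for H2-DMb2, and rounded RSEM counts gave 0.84 for H2-T23. With each library left out, sprout values ran from -1.05 to 0.060 for H2-Aa, -0.63 to 0.50 for H2-DMb2, -0.41 to 0.36 for H2-T23, -0.061 to 0.83 for H2-Q4 and -0.16 to 1.01 for H2-Q10. With 2 sprout libraries a group, each call rests on a spread estimated mostly from other genes, and at these depths a member below 0.177 CPM cannot be told from 0.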
